A study of Mus musculus with 60 samples.

Results

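Among 32540 KLF4 peaks called in the first untreated Lnc956 knockout library of mouse embryonic stem (ES) cells, 1520 (4.67%) were sites of the knockout-derived lines only, called knockout-line sites here. Such a peak overlapped, by 1 bp or more, a peak of the other untreated knockout library and of all 4 untreated rescue libraries, and no peak of either untreated wild-type (WT) library. Mitochondrial peaks were left out. The sites were 10.2% of the 14896 peaks found in all 6 untreated lists of knockout-derived lines. A further 975 of those peaks were in 1 of the 2 WT lists, and 12401 were in both, called shared sites here. The presence and the strength of untreated peaks chose the sites, so these are given as descriptions without a test.

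The study measured KLF4 and P53 binding and RNA in mouse ES cells with and without Lnc956, a long noncoding RNA, before and after exposure to etoposide, which traps topoisomerase II on DNA and so breaks both strands. KLF4 ChIP libraries came from Lnc956 knockout cells, from knockout cells overexpressing full-length Lnc956 (full-length rescue), from knockout cells overexpressing Lnc956 without its nucleotides 862-1253 (deletion rescue) and from WT cells. Each was treated with 10 uM etoposide for 3 h or left untreated. P53 ChIP libraries and a first RNA set came from Lnc956 knockdown and WT cells, treated with 10 uM etoposide, for a time the sources used here do not give, or left untreated. From an RNA time course, Lnc956 knockout and WT cells exposed to etoposide for 6 h or 9 h are used, at 1 uM, except that 1 of the 2 knockout libraries at 6 h is labelled 10 uM. The fit of these RNA values also held the other groups of the time course. These were knockout cells untreated or treated for a shorter time, P53 knockdown cells, and knockout cells with P53 knockdown. Some of their libraries are labelled 10 uM as well. Both rescue lines carry the knockout as well as the overexpressed transcript, so by their labels all 6 libraries that define the sites share the deletion. The level of Lnc956 was not analysed here, so the knockout, rescue and knockdown labels were not checked. Every group had 2 libraries, all cells grew in serum replacement with LIF, and the labels do not say whether a line is 1 clone or whether replicates were separate cultures. A p-value here thus measures only how far these libraries differ among themselves, and that spread may be technical. RNA of the rescue lines was not analysed here.

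KLF4 is a zinc-finger transcription factor that binds GC-rich sequence with a CACCC core. In mouse ES cells it sustains the naive state, the ground state of pluripotency that LIF signalling supports, together with POU5F1, SOX2, NANOG, ESRRB and TFCP2L1. It binds at promoters and at distal enhancers, the stretches of DNA that act on genes from a distance. P53, also called TRP53, is the transcription factor that DNA damage activates, and the antibody used here was against its form phosphorylated at serine 15.

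The promoter sequences below show the DNA at some of the few knockout-line sites that overlap a listed gene start. Each is the 250 bases before the first listed start of the gene, from RefSeq's GRCm38.p6 (mm10) table, written 5′ to 3′ on the gene's strand. The site covers 109 of the bases shown for Nanog, at their 3′ end, and 102 of those for Gm34581, at their 5′ end, and all of them for the other 4. Capitals mark matches to the KLF4 motif GGGNGTGG on either strand. Nanog is shown because it is the naive factor with a site over its start (chr6:122707239-122707488, plus strand). The windows of 4930512J16Rik (chr6:89285726-89285975, minus strand) and Lrrc2 (chr9:110951295-110951544, plus strand) are under the strongest such sites, and Lrrc2 lies next to Tdgf1. Rbm3os (chrX:8145177-8145426, plus strand) stands for the X chromosome. The windows of Gm38894 (chr6:124797094-124797343, minus strand) and Gm34581 (chr12:50980463-50980712, plus strand) are shown because they share sequence with each other.
Nanog: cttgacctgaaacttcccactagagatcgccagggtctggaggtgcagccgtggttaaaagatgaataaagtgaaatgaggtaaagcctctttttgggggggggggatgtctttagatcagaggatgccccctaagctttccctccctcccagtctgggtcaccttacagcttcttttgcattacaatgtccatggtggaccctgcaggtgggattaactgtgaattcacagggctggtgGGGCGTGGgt
4930512J16Rik: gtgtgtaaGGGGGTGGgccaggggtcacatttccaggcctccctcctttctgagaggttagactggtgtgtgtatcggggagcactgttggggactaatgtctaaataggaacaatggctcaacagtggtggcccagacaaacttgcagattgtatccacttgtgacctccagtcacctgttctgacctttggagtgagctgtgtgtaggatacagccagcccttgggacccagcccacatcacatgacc
Lrrc2: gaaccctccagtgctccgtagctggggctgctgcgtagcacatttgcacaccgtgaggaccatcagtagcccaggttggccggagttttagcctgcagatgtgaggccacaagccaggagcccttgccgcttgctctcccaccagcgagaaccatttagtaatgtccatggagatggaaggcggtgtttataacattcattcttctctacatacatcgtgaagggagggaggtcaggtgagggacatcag
Rbm3os: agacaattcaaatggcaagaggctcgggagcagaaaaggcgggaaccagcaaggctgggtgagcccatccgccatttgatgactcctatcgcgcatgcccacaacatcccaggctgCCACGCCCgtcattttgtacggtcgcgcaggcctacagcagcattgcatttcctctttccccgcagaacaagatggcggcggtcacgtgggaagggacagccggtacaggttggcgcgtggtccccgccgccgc
Gm38894: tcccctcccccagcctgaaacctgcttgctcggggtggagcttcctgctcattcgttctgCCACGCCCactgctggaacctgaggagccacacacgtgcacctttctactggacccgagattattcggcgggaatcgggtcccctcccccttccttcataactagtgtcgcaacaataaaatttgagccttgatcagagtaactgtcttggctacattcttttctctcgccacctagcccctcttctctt
Gm34581: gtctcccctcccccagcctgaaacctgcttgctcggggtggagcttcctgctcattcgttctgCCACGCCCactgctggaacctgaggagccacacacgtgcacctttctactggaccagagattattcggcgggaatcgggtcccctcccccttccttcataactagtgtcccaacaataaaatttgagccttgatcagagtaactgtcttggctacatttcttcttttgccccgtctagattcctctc

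In the Nanog window the single KLF4 match ended close to the start. A run of G in the same window, outside the site, gives overlapping matches to the GC box GGGNGGGG. The Lrrc2 window held no KLF4 match, and the windows of 4930512J16Rik and Rbm3os held 1 each. At the 4930512J16Rik site the folds were 19.8 and 20.2 in the knockout, 18.8 and 21.5 in the full-length rescue, and 12.3 and 12.9 in the deletion rescue (17.6 ± 3.98, SD, n = 6 lists). The site at Rbm3os had 13.8 ± 2.76 and those at Gm38894 and Gm34581 had 13.1 ± 4.6 and 13 ± 4.38. The windows of Gm38894 and Gm34581, on different chromosomes, had a run of 115 identical bases in common. The 20 bases around their KLF4 match stood in 7 of 32851 listed promoter windows, against 1 for 4930512J16Rik, 1 for Rbm3os and 2 for Nanog, both of them windows of Nanog itself. The sources used here do not say how reads from such copies were placed.

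The untreated WT libraries stand apart from every other KLF4 library on chromosome 6. Chromosome 6 held 7.13% to 8.25% of the peaks of the untreated knockout-derived lists, 7.58% to 8.61% of the treated knockout-derived lists, and 9.28% and 9.12% of the treated WT lists, but 4.39% and 4.29% of the untreated WT lists. At shared sites, the fold of a library relative to untreated WT was taken as log2 and the library's median was subtracted. On chromosome 6 this difference lay between 0.44 and 0.71 in all 14 other libraries, the treated WT libraries included. On chromosome 8 it lay between 0.15 and 0.22, and on the other chromosomes, Y left out, between -0.23 and 0.16. In the first RNA set chromosome 6 differed between treatments in both genotypes. In WT cells, treated against untreated, the median log2 difference in FPKM was 0.56 over 607 genes of chromosome 6 and between -0.21 and 0.15 on the other autosomes and the X chromosome. In knockdown cells the same median was 0.55, and between untreated knockdown and WT cells it was 0.04. The part of this chromosome-wide difference in the choice of the sites was not tested, and values without chromosome 6 are given below.

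**Figure D1:**
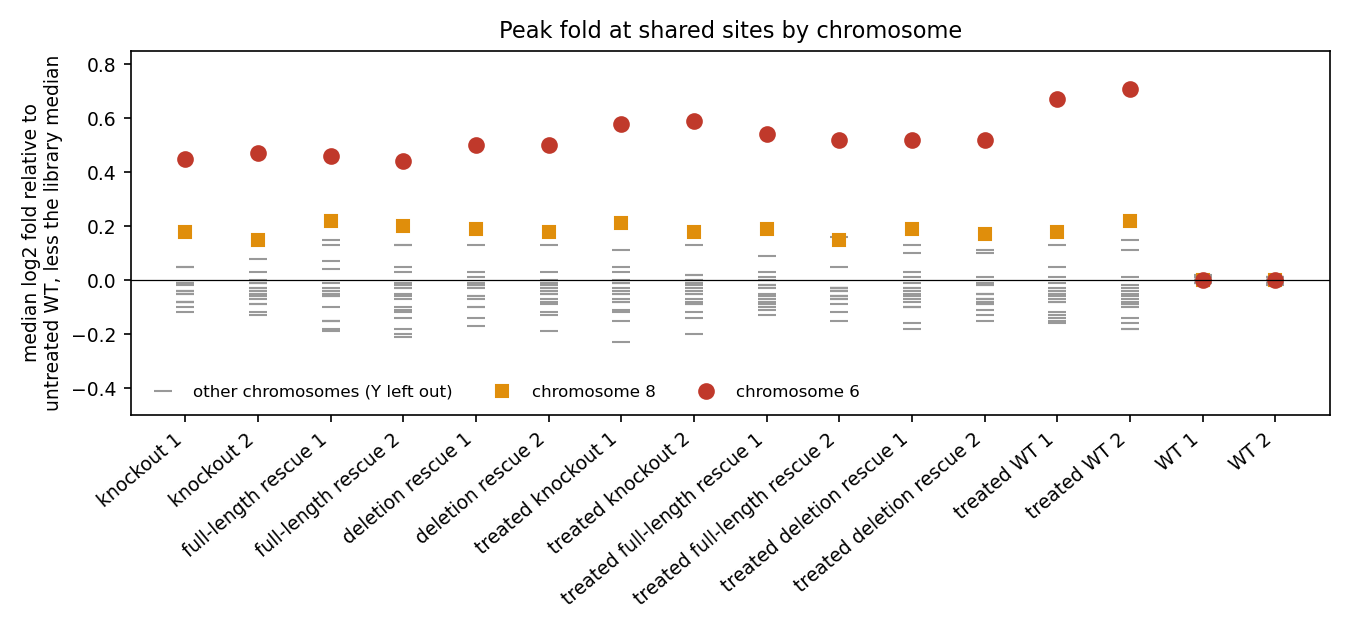
Median log2 fold of KLF4 peaks at shared sites relative to the untreated WT libraries, by chromosome, less the median of the library (vertical axis), for each library (horizontal axis). Chromosome 6 (circles) lies between 0.44 and 0.71 in every library other than untreated WT, and chromosome 8 (squares) between 0.15 and 0.22.

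Markers in the RNA libraries also differed between groups. A list of 10 fibroblast genes, such as Col1a1 and Col3a1, which encode fibrillar collagens, summed to 356 and 366 FPKM in knockout cells at 6 h and to 542 and 547 FPKM at 9 h, against 20.7 and 17.8 FPKM in WT cells at 6 h and 21.1 and 21.4 FPKM at 9 h, where 2 of the 10 were listed at 0 in both libraries. In the first set the sums were 117 and 119 FPKM in treated knockdown and 135 and 127 FPKM in treated WT cells, against 544 and 544 FPKM in untreated knockdown and 577 and 561 FPKM in untreated WT cells. A list of 4 Y-linked genes summed to 40.5 and 44.8 FPKM in treated knockdown and 36.7 and 39.1 FPKM in treated WT cells, against 3.79 and 4.15 FPKM in untreated knockdown and 4.36 and 4.17 FPKM in untreated WT cells. In the time course at 6 h and 9 h the same 4 genes were all listed at 0 in WT cells. In knockout cells at these times they summed to between 2.17 and 3.41 FPKM. In untreated knockout cells of the time course they summed to 0.14 and 0.282 FPKM, and at 3 h to 0.408 and 0.0563 FPKM. The 8 ES markers were all above 0, with sums of 2196 to 2652 FPKM in the first set and 1313 to 2093 FPKM in the knockout and WT libraries at 6 h and 9 h. In bulk samples fewer cells of a type and less RNA per cell cannot be told apart.

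Knockout-line sites were weaker and narrower than shared sites. The median over sites of the mean fold enrichment, the fold over the control that the authors' peak caller gave, was 7.97 at knockout-line sites and 12.7 at shared sites, and the median width was 628 bp against 1003 bp. A fold of 10 or more in all 6 lists was reached by 63 knockout-line sites (4.14%) and 5427 shared sites (43.8%). By library, the median fold at knockout-line sites was 7.58 and 6.23 in the knockout, 7.53 and 7.51 in the full-length rescue, and 8.86 and 8.88 in the deletion rescue. The deletion rescue libraries were highest and the second knockout library lowest, while the first knockout library was level with the full-length rescue. In the first knockout library the fold is that of the site's own peak, in the others that of their strongest overlapping peak. When knockout replicate 2 was not required, the rule found 2497 sites.

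**Figure D2:**
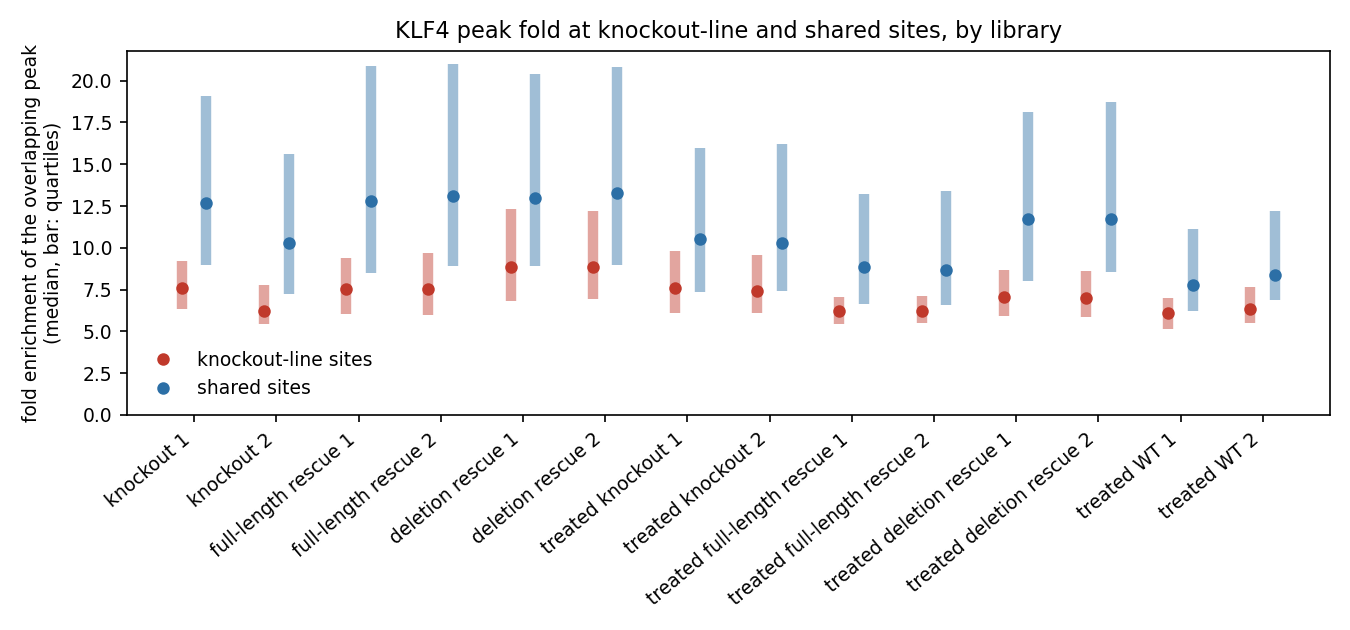
Fold enrichment of the overlapping KLF4 peak (vertical axis, median with quartile bar) at knockout-line sites and at shared sites with a peak in each library (horizontal axis). The knockout-line medians of the untreated lists lie between 6.23 and 8.88, all below those of shared sites in the same library.

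The 12 sites of highest mean fold adjoin WT peaks. All 12 lay between 45 and 1264 bp from an untreated WT peak, and in none did the overlapping peaks have their summit inside the site in all 6 lists (1 to 4 of 6 lists). The strongest, at chr6:88846408-88847592 in Podxl2, which encodes an endoglycan, had folds of 8.49 and 7.01 in the knockout, 134 and 131 in the full-length rescue, and 93.1 and 93.6 in the deletion rescue. Next was a site in Txnrd3, which encodes a thioredoxin reductase, with 9.9 and 63.8 in the knockout, 108 and 112 in the full-length rescue, and 80.4 and 78.2 in the deletion rescue. A site near Jund, an AP-1 subunit, had 7.52 and 8.17 in the knockout, 97.8 and 99.6 in the full-length rescue, and 70.7 and 69.9 in the deletion rescue. At Podxl2 and Jund the 4 rescue lists are high and both knockout lists low, and at Txnrd3 only the first knockout list is low. Summits lay inside the site in 3 of the 6 lists at Podxl2, 2 at Txnrd3 and 1 at Jund. A high fold can thus belong to a summit outside the site. The first knockout list gives the fold of the site's own peak, the other lists that of their strongest overlapping peak. These values therefore cannot compare binding at the site itself between lines. The others of the 12 had mean folds between 27 and 53.3. They lay near Cpne9, Prx, Ano9, Evi5l, Gm36897, Gm35359, Def6 and Gm32673, except for a site on chromosome 11 with no gene within 10 kb. The listed start nearest to that site, of Socs3, was 32744 bp away.

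Summits lay inside the site in all 6 lists at 1046 of 1520 knockout-line sites (68.8%), with a median fold of 8.03, and at 11059 of 12401 shared sites (89.2%), with a median fold of 13.1. Sites with such centred peaks, listed after the values had been seen, reached lower folds. The strongest, at chr4:78513175-78513758 with no gene within 10 kb, had folds of 28.5 and 25 in the knockout, 23 and 21.4 in the full-length rescue, and 25.4 and 24.7 in the deletion rescue (24.7 ± 2.38, SD, n = 6 lists). Its nearest untreated WT peak was 300917 bp away. The same site had treated folds of 16.1 and 16.3 in the knockout, 12.5 and 14.8 in the full-length rescue, 20.7 and 20.5 in the deletion rescue, and 11.5 and 10.2 in WT cells. A site inside Ninj2, which encodes an adhesion molecule of injured nerve, at chr6:120126110-120127148 had a mean of 23.1 ± 1.28 (SD, n = 6 lists) in the untreated knockout-derived lines and 10.1 and 9.16 in treated WT cells. Further centred sites inside Ppp1r9a (20.3 ± 4.22) and B4galnt3 (19.3 ± 1.43) and between Gstp1 and Gstp2, which encode detoxifying glutathione transferases (18.9 ± 4.51), had the mean folds given.

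Sites close to the limits of the rule show how it divides peaks. The 3 knockout-line sites nearest to an untreated WT peak were 1, 1 and 3 bp from it, at Mtss1 (chr15:59082796-59083204), at chr5:64714185-64714484 and at Cd2 (chr3:101280544-101280933). The smallest overlaps with a required list were 2, 7 and 7 bp. The 3 peaks that failed only through a WT peak with the shortest overlap shared 3, 7 and 8 bp with it, and had folds of 4.08, 6.33 and 4.24 in the first knockout library. The median distance from a knockout-line site to the nearest untreated WT peak was 7248 bp, and 275 sites (18.1%) had one within 1 kb.

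Chromosome 6 held 311 knockout-line sites (20.5%), against 5.92% of shared sites and 1.84% of the 3103 sites found in both untreated WT lists and in none of the 6 others. Of the peaks found in all 6 knockout-derived lists, 26.8% on chromosome 6 were knockout-line sites, against 8.8% elsewhere. Along chromosome 6 this share was 18.5% from 0 to 80 Mb and 30.2% from 80 to 150 Mb. Chromosome 8 held 149 sites (9.8%), against 7.76% of shared sites, and X held 43 (2.83%), against 1.73%. The Y chromosome held 6, with mean folds of 5.79 to 12.5. Among the centred sites 20.9% were on chromosome 6, against 6.03% of centred shared sites.

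**Figure D3:**
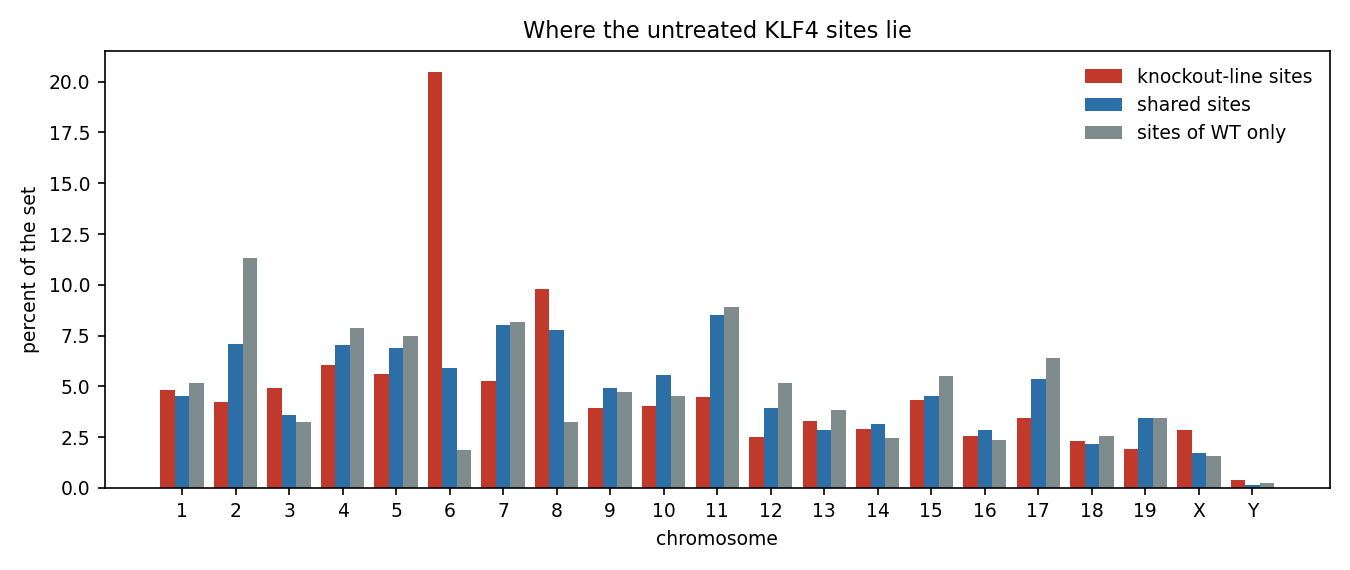
Share of each set of untreated KLF4 sites (vertical axis, percent) on each chromosome (horizontal axis). Chromosome 6 holds 20.5% of knockout-line sites, 5.92% of shared sites and 1.84% of the sites of WT only.

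The sites also lay in runs. When sites with gaps of 100 kb or less were joined, 88 runs of 3 or more held 384 sites (25.3%), 164 of them on chromosome 6, while 818 sites stood alone, 79 of them on chromosome 6. The longest run held 18 sites over 228 kb (chr6:113280771-113509129). It passes Mtmr14, Cpne9, Brpf1, Ogg1, Camk1, Tada3, Arpc4, Ttll3, Jagn1, Creld1 and Prrt3. Ogg1 encodes the glycosylase that removes oxidised guanine from DNA, Brpf1 a reader subunit of histone acetyltransferase complexes, and Camk1 a calcium-dependent kinase. Mean folds in this run were between 5.74, in Ogg1, and 53.3, in Cpne9. The Cpne9 site had 7.16 and 4.38 in the knockout, 145 and 149 in the full-length rescue, and 7.38 and 7.36 in the deletion rescue. Peak summits lay inside this site in 4 of the 6 lists, and an untreated WT peak with a fold of 73.5 lay 1264 bp away. The centred site beside Camk1 had 15.1 and 11.1 in the knockout, 16.2 and 19.6 in the full-length rescue, and 23.8 and 27.7 in the deletion rescue. The longest run elsewhere held 10 sites over 255 kb (chr8:70502717-70757951).

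Knockout-line sites were mostly away from gene starts. A promoter window of 250 bases before to 50 after a start was overlapped by 87 of 1485 sites on chromosomes with listed starts (5.86%), against 50.7% of shared sites and 25.8% of all peaks of the first knockout library. The median distance to a start was 15198 bp. Of the 1520 sites 55.8% overlapped a gene and 79.7% lay within 10 kb of one, against 85.7% and 95.1% of shared sites. On chromosome 6 the share in promoter windows was 6.75%, and elsewhere it was 5.62%.

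Over the 97 promoter windows overlapped by a knockout-line site and by no shared site, the median GC content was 53.7%, against 64% in 8375 windows at shared sites and 52.7% in all 32851 windows. The observed over expected CpG ratio had a median of 0.495, against 0.805 at shared sites and 0.384 in all windows. In all, 12 motifs were searched on both strands, and matches of different motifs can overlap. The KLF4 motif GGGNGTGG stood in 23.7% of these windows, 28% of the windows at shared sites and 17.6% of all. The GC box GGGNGGGG of SP and KLF factors stood in 26.8% of them, 59% of those at shared sites and 33.2% of all. The AP-1 motif TGANTCA stood in 10.3%, against 3.82% at shared sites and 7.81% of all, and the motif AAGGTCA of ESRRB, an orphan nuclear receptor of naive cells, in 9.28%, against 2.65% and 4.72%. The AP-1 and ESRRB shares rest on 10 and 9 windows at knockout-line sites, and a match describes the letters only.

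Genes of the naive state were among those near these sites. Of 20 listed naive genes, 7 (35%) had a site within 10 kb, against 1109 of 21887 protein-coding genes (5.07%), and 18 of the 20 had a shared site, against 47.8% of coding genes. The 7 were Nanog, Zfp42, Tfcp2l1, Dppa5a, Tet2, Lifr and Fbxo15. Of 15 general pluripotency genes, 3 had a site (Utf1, Tdgf1 and Tcf7l1), and of 12 formative and primed genes 1 did, Dnmt3l, a cofactor of DNA methyltransferases. Among 25 KLF and SP genes Klf15 and Sp1 had sites, among 33 P53 targets Gdf15 and Mdm4, among 13 immediate early genes Junb, Jund and Ier2, and among 13 trophectoderm genes Gata2, Tfap2c and Tead4. Endoderm had Col4a1 and Col4a2 of 11 genes, the fibroblast list Fn1 of 17, and the actin cytoskeleton list Cnn2 of the 17 annotated. Listed genes of mesoderm (10), neural ectoderm (10) and the Y chromosome (8) had none.

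At Nanog, a homeodomain factor of the naive network, the site over the start (chr6:122707380-122707803) had folds of 7.89 and 7.36 in the knockout, 13.4 and 10.4 in the full-length rescue, and 15 and 16.2 in the deletion rescue. A second site (chr6:122706628-122707166) overlaps the same peaks in the 5 other lists, so the 2 are not independent. The nearest untreated WT peak, with a fold of 16.5, was 4168 bp from the first site. Treated knockout cells had 14.4 and 11.7 and treated deletion rescue cells 7.41 and 8.81 there, while the treated full-length rescue and treated WT lists had no peak.

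At Zfp42, also called Rex1, a marker of the naive state, the site was 532 bp from a WT peak. Its folds were 8.66 and 8.92 in the knockout, 7.04 and 8.19 in the full-length rescue, and 48.3 and 6.58 in the deletion rescue, and the single high value comes from 1 list. At Tfcp2l1, a naive transcription factor, the folds were 12.7 and 9.34 in the knockout, 7.53 and 10.4 in the full-length rescue, and 14.6 and 14.5 in the deletion rescue. Here every list had its summit in the site.

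Beside Tdgf1, which encodes the Nodal co-receptor Cripto, the stronger site overlaps the start of Lrrc2 and had 14.1 and 13.2 in the knockout, 12.6 and 13.1 in the full-length rescue, and 18.4 and 20.4 in the deletion rescue. It recurred in all 8 treated lists, with 16 and 15.4 in the knockout, 5.45 and 6.31 in the full-length rescue, 9.43 and 10.2 in the deletion rescue, and 6.99 and 6.1 in WT cells. The site near Tcf7l1, a repressor of the naive network in Wnt signalling, also recurred in all 8, with 5.39 and 5.29 in treated WT cells. Sites at Dnmt3l (14.6 ± 5.96), Utf1, a chromatin protein of pluripotent cells (17.3 ± 8.78), and Sp1 (18.1 ± 10) lay 337, 219 and 107 bp from an untreated WT peak.

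Etoposide lists did not choose the sites. Under etoposide a peak was present at 80.8% and 76.8% of knockout-line sites in the knockout, at 38.5% and 35.6% in the full-length rescue, at 77% and 79.5% in the deletion rescue, and at 10.1% and 7.83% in WT cells. The 6 treated knockout-derived libraries all lie above both treated WT libraries, and the full-length rescue lies apart from the other 4. The mean was 64.7% ± 21.5 (SD, n = 6) in knockout-derived lines and 8.95% ± 1.58 (SD, n = 2) in WT cells, a difference of 55.7 percentage points (two-sided exact permutation test, p = 0.0714, the smallest that 6 against 2 libraries allow).

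Shared sites recurred at higher levels, with 91.5% and 90.9% in the knockout, 79.6% and 78% in the full-length rescue, 95.5% and 96.2% in the deletion rescue, and 47.2% and 40.2% in WT cells. At shared sites both deletion rescue libraries lie above both knockout libraries, while at knockout-line sites they lie between them. Taken as knockout-line minus shared sites within each library, the gap was -23.9 ± 14.1 points in knockout-derived lines and -34.8 ± 3.37 points in WT cells, a difference of 10.9 points that did not pass (exact permutation test, p = 0.429). In the 6 knockout-derived libraries knockout-line sites recurred less often than shared sites (64.7% against 88.6%, a difference of -23.9 points, lower in 6 of 6 libraries, exact paired permutation test, p = 0.0312, the smallest possible). Shared sites were also the stronger set in the untreated lists (median of the mean fold 12.7, against 7.97). The test therefore cannot tell membership of a set from untreated peak strength, and shares at like fold are given below. Libraries of the same line are not independent lines. The treated WT lists were short, with 6942 and 5690 peaks, against 13948 to 24838 in the treated knockout-derived lists, and no file gives read depth.

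**Figure D4:**
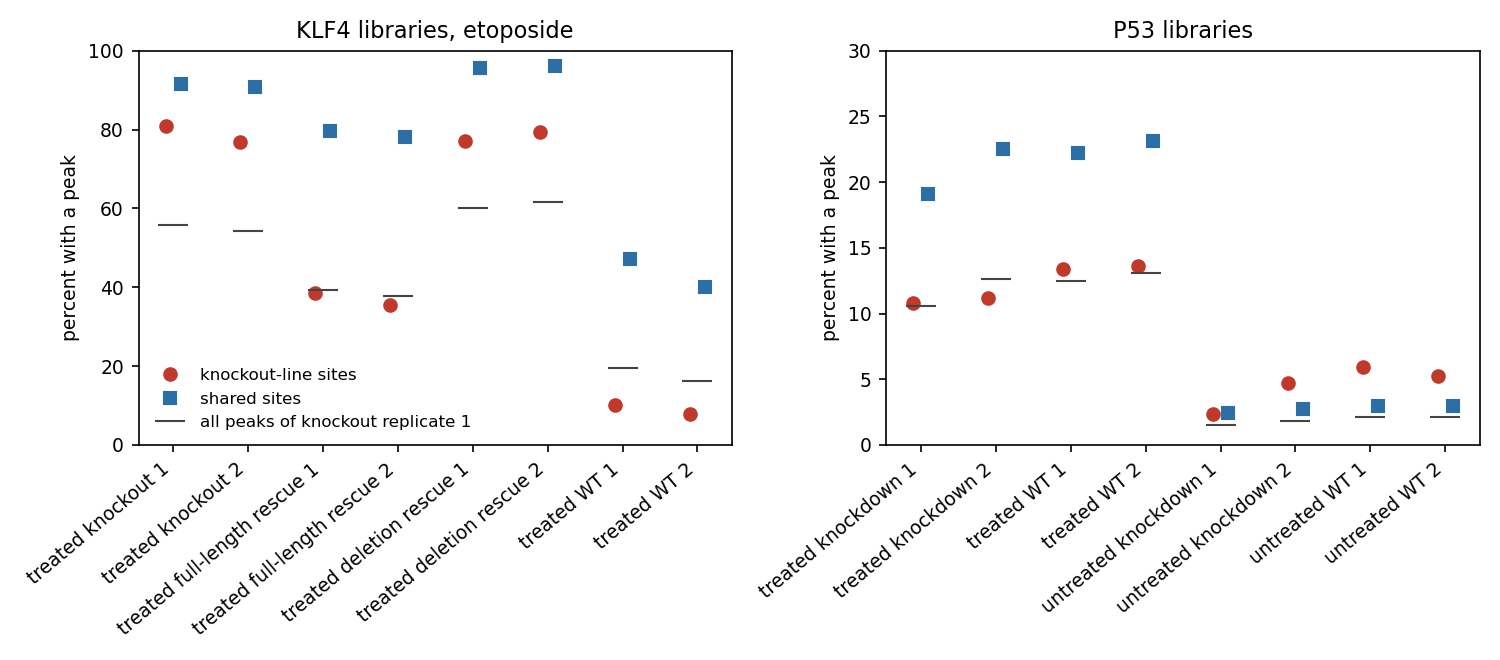
Percent of sites with a peak (vertical axis) in each treated KLF4 library (left) and each P53 library (right). Circles are knockout-line sites, squares shared sites and dashes all peaks of knockout replicate 1. Knockout-line sites lie below shared sites in every treated KLF4 and treated P53 library.

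Counted as a peak in both libraries of a group, 1127 knockout-line sites (74.1%) recurred in the treated knockout, where 52.3% of all peaks of the first knockout library did. In the treated deletion rescue 1087 (71.5%) recurred, beside 56.1% of all such peaks. In the treated full-length rescue 405 (26.6%) recurred, beside 33.8%, and in treated WT cells 87 (5.72%), beside 15.3%. All peaks include those of 1 untreated list alone, while the sites were required in 6 lists. On chromosome 6 the shares were 74.3%, 74.3%, 42.1% and 9.97% in the treated knockout, deletion rescue, full-length rescue and WT cells, against 74.1%, 70.8%, 22.7% and 4.63% on the other chromosomes.

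Of the 1520 sites, 323 had a peak in all 6 treated knockout-derived lists, 185 had one in a treated WT list, and 70 had none in any treated list. A peak in all 6 and in neither treated WT list was found at 231 sites (15.2%), against 24.4% of shared sites. Values at like untreated fold are set side by side next. Among sites with a mean fold of 6 to 8, a treated peak was present in the knockout at 74% and 67.6% of 635 knockout-line sites, against 67.1% and 66.5% of 1738 shared sites. In WT cells this bin had 3.78% and 2.68% of knockout-line sites, against 4.49% and 1.9% of shared sites. In the full-length rescue it had 29.9% and 26%, against 43.2% and 40.4%, so there the knockout-line sites are the lower set. Among sites with a mean fold of 8 to 10, a treated peak was present at 89% and 86% of 372 knockout-line sites, against 87.5% and 86% of 2080 shared sites, in the knockout. In the deletion rescue the same bin had 86.8% and 89.2% of knockout-line sites, against 94.6% and 96.2% of shared sites. In the full-length rescue it again had fewer knockout-line sites, 41.7% and 37.9%, against 62.5% and 60% of shared sites. In WT cells it had 9.95% and 7.53%, against 13.1% and 6.97%. In the bin of 10 to 15, treated WT cells had a peak at 20.5% and 16.9% of 302 knockout-line sites. Of 3493 shared sites in that bin, 37.3% and 25% had one. At a fold of 15 or more, treated WT cells had a peak at 34.2% and 28.9% of 76 knockout-line sites, against 86.6% and 81.1% of 4844 shared sites. This last bin has no upper limit, so folds in it are less alike. The highest mean fold was 77.9 at knockout-line sites and 174 at shared sites. These are descriptions without a test, since fold chose the bins.

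Sites with the strongest treated WT peaks included those in Ninj2 and on chromosome 4 described above. The site in Kctd8, which encodes a GABA-B receptor subunit (chr5:69123520-69124141), had 9.21 and 11.8 in treated WT cells. Its folds were 12.5 and 12 in the treated knockout and 5.69 and 5.06 in the treated full-length rescue, and it had P53 peaks in all 8 P53 libraries as well. Its nearest untreated WT peak was 467827 bp away. A site at chr6:114590816-114591288, 387 bp from an untreated WT peak, had 10.1 and 10.2 in treated WT cells and P53 peaks in all 8 libraries too. A site at chr15:37203201-37203509 had treated WT folds of 9.32 and 9.92 and P53 folds of 10.8 to 16.6 across treated and untreated P53 libraries.

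P53 peaks were present at 10.8% and 11.2% of knockout-line sites in treated knockdown cells and 13.4% and 13.6% in treated WT cells, against 2.37% and 4.74% in untreated knockdown cells and 5.92% and 5.26% in untreated WT cells. Treated and untreated libraries do not overlap. At knockout-line sites the mean was 12.2% ± 1.45 with etoposide and 4.57% ± 1.55 without (SD, n = 4 each), a difference of 7.66 points (two-sided exact permutation test, p = 0.0286, the smallest that 4 against 4 allow). At shared sites the means were 21.7% and 2.78%, a difference of 18.9 points (exact permutation test, p = 0.0286). The gain was thus 11.3 points smaller at knockout-line than at shared sites, as the difference of -11.3 between the gaps shows (exact permutation test, p = 0.0286). Shared sites were also stronger (median of the mean fold 12.7, against 7.97) and more often in promoter windows (50.7%, against 5.86%). This test cannot tell membership of a set from these traits. Of all peaks of the first knockout library, 10.6% to 13.1% had a P53 peak in treated libraries and 1.53% to 2.12% in untreated ones.

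By group, 128 knockout-line sites (8.42%) had a P53 peak in both treated knockdown libraries, where 9% of all peaks of the first knockout library did, and 162 (10.7%) in both treated WT libraries, beside 10.3%. Untreated, 31 (2.04%) had one in both knockdown libraries, beside 1.32%, and 61 (4.01%) in both WT libraries, beside 1.71%. In treated cells the sites are thus near the background, and untreated shares are above it. The 6 sites of highest P53 fold in treated WT cells include 4 with P53 peaks in all 8 libraries, 2 of them next to Gm36079 on chromosome 13, 1 in Akap9, which encodes a centrosomal kinase anchor, and 1 in Kctd8. At the first Gm36079 site the P53 folds were 17.8 and 17 in treated knockdown, 16.7 and 19.6 in treated WT, 13.7 and 13.5 in untreated knockdown, and 16.9 and 18.2 in untreated WT cells. Sites in Tulp4 and near Ogdh had P53 peaks in the treated libraries only. In Tulp4 the P53 folds were 17.3 and 16 in treated knockdown and 15.7 and 18.1 in treated WT cells, with no peak in the 4 untreated lists.

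RNA was compared at genes within 10 kb of a knockout-line site. Of 1783 such annotated genes, 948 were tested in the first set and 985 in the time course, with limma on log2(FPKM + 1), Benjamini-Hochberg adjustment over all genes and a threshold of 0.05. Log2 differences below are on that scale and understate changes of genes with low FPKM. RNA was not chosen by the rule. Knockdown cells are not the knockout-derived lines that define the sites.

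Under etoposide, genes near knockout-line sites were more often higher in knockdown than in WT cells. Of 948 genes 356 (37.6%) were higher and 180 (19%) lower, where 22.7% of all 12733 genes tested were higher and 22.9% lower. Genes near shared sites only had 24% and 22.7%. The median log2 difference was 0.08 over the genes at knockout-line sites and -0.01 over all genes. Without chromosome 6, 36.3% were higher and 18.2% lower, and on chromosome 6 44.2% and 23.1%. The share of genes higher was 36.3% of 794 genes with 1 site, 41.4% of 116 with 2 and 52.6% of 38 with 3 or more. Knockout against WT cells showed no such rise with the number of sites. The same shares there were 22.8%, 25.2% and 21.1% at 6 h and 20.5%, 20.2% and 18.4% at 9 h. Genes with a site and a shared site had 38.3% higher, genes with a site alone 33.8%, and genes with neither 15.6%. Of genes with a start within 1 kb of a site, 28.7% were higher and 15.8% lower. Fibroblast marker sums in these libraries were 117 and 119 FPKM in treated knockdown and 135 and 127 FPKM in treated WT cells.

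**Figure D5:**
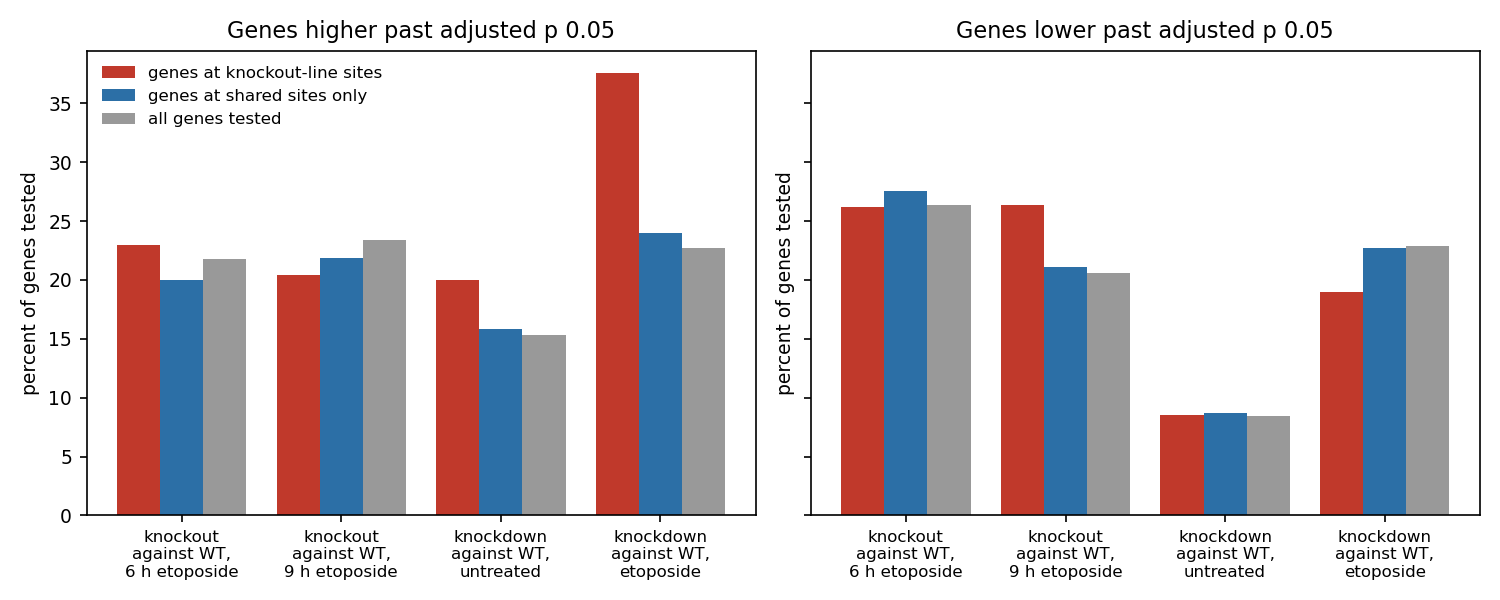
Percent of tested genes higher (left) and lower (right) past an adjusted p of 0.05 (limma, Benjamini-Hochberg) in each comparison (horizontal axis), for genes within 10 kb of a knockout-line site, genes near shared sites only, and all genes tested. Under etoposide 37.6% of genes at knockout-line sites were higher in knockdown cells, against 22.7% of all genes.

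Naive genes made up part of this group. Of the 7 with a site, 6 rose in treated knockdown cells and none fell (median log2 difference 0.54), and of the 13 without one 8 rose and none fell. Of the 3 general pluripotency genes with a site, Tcf7l1 and Utf1 rose, and Tdgf1 did not pass. Of the 12 without one, 10 rose and none fell. Nanog had 110 and 113 FPKM in treated knockdown and 52.3 and 48.2 FPKM in treated WT cells, a log2 difference of 1.14 ± 0.05 (SE, limma adjusted p = 1.43e-06). Zfp42 had 271 and 273 FPKM in treated knockdown and 128 and 128 FPKM in treated WT cells (1.08 ± 0.04). Fbxo15, an F-box protein gene that serves as an ES marker, had 92.9 and 104 FPKM, against 53.2 and 50.7 FPKM (0.91 ± 0.06). Lifr, the LIF receptor, Tfcp2l1 and Tet2, a 5-methylcytosine dioxygenase, rose by 0.54, 0.40 and 0.33 on the log2 scale. Dppa5a, an RNA-binding protein gene, had 1881 and 1924 FPKM in treated knockdown and 2164 and 1938 FPKM in treated WT cells, and did not pass.

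Other genes at the sites rose with them. Tcf7l1 had 43.5 and 41.7 FPKM in treated knockdown and 17.1 and 15.1 FPKM in treated WT cells (1.35 ± 0.08, adjusted p = 3.96e-06). Fam60a, a subunit of the SIN3 histone deacetylase complex, had 142 and 146 FPKM, against 63 and 64.1 FPKM (1.17 ± 0.04). Kat2b, a histone acetyltransferase, Zfp423, a zinc-finger factor, and Fam19a4 rose by 1.16, 1.29 and 1.40. Klf15, a KLF factor with a site 274 bp from its start, had 25.2 and 23.5 FPKM, against 13 and 11.8 FPKM (0.92 ± 0.07), and Tead4, a trophectoderm factor with 3 sites, rose by 0.88. In each of these genes the libraries of the groups do not overlap.

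Among genes at the sites that fell in treated knockdown cells, Lefty1, an inhibitor of Nodal, had 3.61 and 3.95 FPKM, against 25.3 and 21.2 FPKM in treated WT cells (log2 difference -2.34 ± 0.09, adjusted p = 7.36e-07). Aldh1l1, a folate enzyme, had 8.62 and 8.54 FPKM, against 26 and 27.6 FPKM (-1.54 ± 0.07). Plekhg6 fell by 1.74, Ccdc113 by 1.67, Gna15, a G-protein subunit, by 1.52, and 1700001P01Rik by 1.37. At the 12 strongest sites, Podxl2 fell by 0.71, Def6 by 0.73, Ppard, a fatty acid receptor, by 0.58 and Prx by 0.34, while Jund (0.17), Txnrd3 (-0.01) and Brpf1 (0.09) did not pass. P53 targets at the sites split: Gdf15, a stress cytokine, had 55.9 and 57.8 FPKM in treated knockdown and 39.9 and 34.6 FPKM in treated WT cells (0.60 ± 0.08), and Mdm4, a P53 inhibitor, fell by 0.30. Of 31 P53 targets without a site, 20 fell and 1 rose.

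Untreated, knockdown and WT cells differed at fewer of these genes. Of 948, 190 (20%) were higher and 81 (8.54%) lower, where 15.3% and 8.48% of all genes were. With quantile scaling the split was 162 higher (17.1%) and 108 lower (11.4%), where 12.5% and 10.4% of all genes were. The 271 calls in all became 89 without untreated knockdown replicate 1, 125 without untreated WT replicate 1 and 138 without untreated WT replicate 2. Shares of all genes fell as well. Without knockdown replicate 1, 5.8% were higher and 3.59% lower, where 3.92% and 2.93% of all genes were. Without WT replicate 1 these were 9.21% and 4.02%, where 5.81% and 3.05% of all genes were. Without WT replicate 2 they were 9.33% and 5.3%, where 6.64% and 4.71% of all genes were. Of the 7 naive genes Zfp42 rose (309 and 290 FPKM in knockdown, against 220 and 224 FPKM in WT cells, 0.43 ± 0.04), and Nanog and Tet2 fell by 0.18 and 0.27. Cdh3, which encodes P-cadherin, had 33.7 and 29 FPKM in knockdown and 17.6 and 19.2 FPKM in WT cells (0.74 ± 0.08), and Jdp2, an AP-1 repressor, rose by 0.61. Slc2a3, a glucose transporter, had 164 and 240 FPKM, against 486 and 463 FPKM (-1.25 ± 0.14). Tdgf1 fell by 0.80, Dnmt3l by 1.01 and Aire, whose gene lies next to Dnmt3l, by 1.60.

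Knockout and WT cells were compared here only under etoposide. At 6 h, 227 of 985 genes at knockout-line sites (23%) were higher and 258 (26.2%) lower, where 21.8% and 26.4% of all 14223 genes were. At 9 h, 201 (20.4%) were higher and 260 (26.4%) lower, where 23.4% and 20.6% were, and with quantile scaling the split was 186 (18.9%) and 326 (33.1%), where 21.2% and 25.8% of all genes were. Without chromosome 6 the shares were 23.4% and 26.2% at 6 h and 21% and 25.6% at 9 h. At 6 h both shares are close to those of all genes. The fibroblast list was far higher in these knockout than WT libraries, as given above, and 15 of its 16 other tested genes rose at each time, so its part in the values below was not tested.

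At 6 h Dnmt3l had 431 and 395 FPKM in knockout and 28.8 and 31 FPKM in WT cells (3.74 ± 0.10, adjusted p = 1.27e-15), and 243 and 269 FPKM, against 20.1 and 17.9 FPKM, at 9 h. Cnn2, an actin-binding calponin, had 142 and 124 FPKM, against 9.64 and 9.17 FPKM, at 6 h (3.68 ± 0.13). Gsn, which encodes the actin-severing gelsolin, rose by 4.07 at 6 h and 4.42 at 9 h. Rai14 and Sulf1, a heparan sulfatase, each rose by 2.50 at 6 h. Fn1, fibronectin, had 130 and 188 FPKM in knockout and 60.8 and 53.2 FPKM in WT cells at 6 h (1.44 ± 0.20). Fn1 is itself on the fibroblast list.

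Naive genes with a site moved in both directions in knockout cells: 2 rose and 2 fell at 6 h, and 2 rose and 4 fell at 9 h. The 13 naive genes without a site did so too: 6 rose and 2 fell at 6 h, and 3 rose and 5 fell at 9 h. Nanog rose at both times, with 121 and 117 FPKM in knockout cells at 6 h, where WT cells had 50.3 and 55.1 FPKM (1.16 ± 0.10), and 100 and 112 FPKM at 9 h, where WT cells had 62.4 and 56.7 FPKM (0.82 ± 0.10). Fbxo15 rose by 2.45 and 1.64. Zfp42 had 37.6 and 33.3 FPKM, against 43.4 and 45.9 FPKM, at 6 h (-0.33 ± 0.09), and 31 and 27.9 FPKM, against 78.2 and 71.5 FPKM, at 9 h (-1.32 ± 0.09, adjusted p = 3.67e-10). Tfcp2l1, Tet2 and Lifr fell at 9 h by 0.58, 1.04 and 0.68. Gdf15 fell by 1.99 at 6 h and 2.25 at 9 h, and Mdm4 by 0.79 and 1.17. Of 31 P53 targets without a site, 21 fell and 1 rose at 6 h, and 11 fell and 1 rose at 9 h. At 6 h Aldh1l1 fell by 2.40, Espn, an actin bundler of hair cells, by 2.29, Plekhg6 by 2.19 and Fam81a by 2.09, and Cabp1 and Gna15 fell as well.

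Genes past the threshold in the same direction at 6 h, at 9 h and in treated knockdown cells numbered 121 near knockout-line sites. Of 940 genes at the sites tested in both sets, 67 (7.13%) were higher in all 3, where 4.09% of all 12641 genes were, and 54 (5.74%) were lower, where 5.7% were. Cnn2, Rai14, Sulf1 and Fbxo15 were higher and Aldh1l1 and Plekhg6 lower in all 3. Klf4 itself, which has no knockout-line site within 10 kb, had 38.3 and 37.8 FPKM in knockout and 48.2 and 39.8 FPKM in WT cells at 6 h, and 17.2 and 16.5 FPKM, against 38.5 and 34.8 FPKM, at 9 h (-1.08 ± 0.12, adjusted p = 4.95e-07). In treated knockdown cells it had 31.8 and 34.1 FPKM, against 33.4 and 27.7 FPKM in treated WT cells, and did not pass.

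With etoposide in WT cells of the first set, 433 of the 948 genes (45.7%) rose and 337 (35.5%) fell, where 39.3% of all genes were higher and 37.6% lower. This comparison was added after the values were seen and shares WT libraries with both knockdown comparisons. On chromosome 6 78.2% of genes at the sites were higher, with a median log2 difference of 0.82, against 64.7% of all genes tested there. Elsewhere 39.7% of genes at the sites were higher, with a median of 0.01. Knockdown cells had like values on chromosome 6, where 81% of genes at the sites were higher with etoposide, with a median of 0.90, against 62.6% of all genes tested there. Brpf1, in the longest run, had 35.6 and 37 FPKM in treated and 9.78 and 10.1 FPKM in untreated WT cells, and Txnrd3 had 17.5 and 18.4 FPKM, against 3.71 and 3.62 FPKM. Both lie on chromosome 6, where the libraries stand apart as described above. Nanog, on the same chromosome, had 52.3 and 48.2 FPKM in treated and 176 and 171 FPKM in untreated WT cells.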

How the data were processed

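Peaks of KLF4 and P53 ChIP-seq were used as deposited, as 1 list per library. The fold of each peak is the ratio over input that the authors' caller wrote, and its −log10 q is a deposited value too; the smallest −log10 q per list was 2.00 to 2.32. Per the submitters' processing notes the tools included Bowtie2 2.1.0, MACS2 2.2.7.1, TopHat2 2.0.8, Cufflinks and Cuffdiff 2.1.1 and CASAVA 2.19, with mm10. The sources used here do not give the peak cutoff. FPKM values per gene were deposited as 2 tables; 4 columns of the time course were not used, and 140 of 280 repeated symbols of the first set, those with differing values, were left out. No file gives counts, so depth is unknown and precision rests on 2 libraries per group.

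A site was given its own peak in the first untreated knockout list and the strongest overlapping peak of each other list (overlap of 1 bp). FPKM was tested with limma 3.58.1 in R 4.3.3 as log2(FPKM + 1), trend on, over genes at 1 FPKM or more in 2 libraries, all groups of a table in 1 fit, with Benjamini-Hochberg adjustment and a threshold of 0.05. The fit was tested on simulated data. Shares of sites were compared over libraries by exact permutation in Python 3.11.15. Genes were joined by symbol to RefSeq's GRCm38.p6 table (24225 of 24342 matched). Sequence at summits was planned and not analysed here, because only promoter windows were at hand; promoter windows were searched in its place.

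Regions named were the 12 of highest mean fold, up to 4 per gene list, up to 6 by P53 and by treated WT fold, those on Y and in the longest run, and those at the limits of the rule. Genes named for RNA were within 10 kb of a site, past the threshold, with no overlap between groups, up to 6 highest and 6 lowest per comparison, plus list genes and genes of the 12 regions. The sites, lists and tests were chosen with earlier results of these data known. Alternatives covered overlap, peak threshold, list used as anchor, gene window, pseudocount, filter, scaling, replicate block and leaving out each library.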

Additional observations from a re-analysis of the deposited data

Results flagged for a closer look

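Among the genes named by rule, those whose difference between knockdown and WT cells had opposite signs with etoposide and untreated, without overlap of libraries in either, and for which the difference between these passed limma with Benjamini-Hochberg adjustment, are given as log2 values with etoposide and then untreated. Nanog had 1.14 with etoposide and -0.18 untreated (difference 1.31 ± 0.07, adjusted p = 2.03e-05). Zfp423 had 1.29 and -0.11 (difference 1.39 ± 0.13, adjusted p = 0.000137). Tet2 had 0.33 and -0.27 (0.60 ± 0.11, adjusted p = 0.00308), Tdgf1 0.11 and -0.80 (0.91 ± 0.12), Dnmt3l 0.18 and -1.01 (1.19 ± 0.17), and Slc2a3 0.34 and -1.25 (1.59 ± 0.19). Cnn2 had 0.47 and -0.16, Fn1 0.12 and -0.20, and Ppp1r9a 0.48 and -0.17. The opposite order was seen for Lefty1, with -2.34 and 0.17 (difference -2.51 ± 0.12, adjusted p = 1.43e-05), Plekhg6, with -1.74 and 0.38, Terc, with -1.01 and 0.84, and Camk1, with -0.19 and 0.23 (difference -0.43 ± 0.11, adjusted p = 0.0179).

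Between 6 h and 9 h the knockout minus WT difference changed sign, by the same criteria, for 6 of the named genes. Fam60a had 1.01 at 6 h and -0.56 at 9 h (difference -1.57 ± 0.13, limma adjusted p = 3.25e-07), Tead4 0.52 and -1.15 (-1.67 ± 0.24, adjusted p = 8.33e-05), Utf1 0.59 and -0.43 (-1.02 ± 0.21), and Zfp423 0.41 and -0.55 (-0.96 ± 0.25). Prss57 had -0.24 at 6 h and 1.21 at 9 h, and Prx -0.18 and 0.73.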

How the results depend on the processing

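The number of sites was 960 under a wider required overlap (0.5 of the peak), 856 at a −log10 q of 5 or more and 1011 outside chromosomes 6, 8, X and Y. It was 1568 to 2497 when 1 list was not used. Both choices by chromosome, the centred peaks and the crossed pairing were chosen after seeing the data. Leaving out 1 library, the etoposide KLF4 difference was 52.5 to 61.6 points (exact permutation p of 0.0952 to 0.286), the gap to shared sites -26.6 to -20.2 points (p = 0.0625, the smallest for 5 pairs) and the P53 difference 6.93 to 8.15 points (p = 0.0571, the smallest for 3 against 4). For centred peaks these were 57.8, -22.7 and 7.39 points, and outside chromosome 6 56, -24.9 and 7.9 points.

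Genes past the threshold in knockout cells at 6 h and 9 h numbered 485 and 461 of 985, and 302 and 287 of 606 with the wider overlap. At the stricter −log10 q they numbered 288 and 265 of 554. With the wider overlap 23.8% were higher and 26.1% lower at 6 h, where 21.8% and 26.4% of all genes were. At 9 h 19.6% were higher and 27.7% lower, where 23.4% and 20.6% of all genes were. At the stricter −log10 q the shares were 24.7% and 27.3% at 6 h and 20.8% and 27.1% at 9 h. With a start within 1 kb they numbered 41 and 43 of 100 tested, and 29 untreated and 45 with etoposide in the knockdown. The share higher there with etoposide was 28.7%, against 37.6% within 10 kb. Within 50 kb they numbered 1014 and 973 of 2142 at 6 h and 9 h. In the knockdown they numbered 561 untreated and 1046 with etoposide, of 2026 within 50 kb. The shares within 50 kb were 20.9% higher and 26.5% lower at 6 h (all genes 21.8% and 26.4%). At 9 h they were 20.7% and 24.7% (all genes 23.4% and 20.6%). In the knockdown they were 19.8% and 7.85% untreated (all genes 15.3% and 8.48%). With etoposide they were 31.1% and 20.5% (all genes 22.7% and 22.9%). Leaving out 1 library gave 394 to 422 at 6 h, 349 to 375 at 9 h, 89 to 212 untreated in the knockdown (271 in full) and 423 to 465 with etoposide (536 in full). Where 1 library was left out, smaller shares of all genes tested passed too. Without the libraries labelled 10 uM there were 420 at 9 h (18.7% higher and 24% lower, where 22% and 18.9% of all genes were). No library compared at 9 h has that label, so the change comes through other groups in the shared fit. At 6 h this choice leaves 1 knockout library, and no count is given.

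Replicate numbers only share a number: same-numbered deviations correlated at -0.0978 untreated and 0.0889 with etoposide in the knockdown comparisons, and at -0.204 at 6 h and -0.116 at 9 h. The replicate block gave 486, 451, 253 and 526 genes at 6 h, at 9 h, untreated and with etoposide, and the crossed pairing 488 and 449 at 6 h and 9 h. Of 1474 alternatives for values of named genes, 1374 kept direction and side of the threshold, 84 were weaker, 15 stronger and 1 reversed: Dppa5a at 9 h had -0.37 with quantile scaling, against 0.01. The cause was not tested. Depth is unknown, so sites absent from short lists may be undetected.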
